A study of Mus musculus with 6 samples.

Results

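Among neoplastic cells sorted from mouse lung tumours, 398 cells combined abundant simple-epithelial keratin transcripts with raised Hopx. They were chosen by their own transcript counts: of 16017 cells, those with at least 500 detected genes, at most 20% mitochondrial unique molecular identifiers (UMIs, each marking 1 captured transcript), at least 1 TdTomato UMI, at least 50 Krt8 plus Krt18 UMIs and at least 4 Hopx UMIs per 10000 UMIs of the cell were kept. The 398 cells, called keratin-high, Hopx-raised cells below, made up 3.29% of the 12092 cells that passed the general filters (exact binomial 95% interval 2.98 to 3.63) and 33.7% (31.0 to 36.4) of the 1182 cells past the keratin threshold. They are described beside the other 784 keratin-high cells, whose Hopx was under 4 per 10000 (keratin-high, Hopx-low cells), and beside 950 cells with at least 15 Hopx UMIs and fewer than 50 keratin UMIs per 10000 (Hopx-high, keratin-low cells).

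The cells came from 6 mice in which intratracheal lentiviral Cre had switched on tdTomato and had placed Lkb1 (gene symbol Stk11) in its trapped state, in which a gene trap carrying GFP truncates the transcript. All 6 mice carried Lkb1XTR/XTR and Rosa26LSL-tdTomato. After 20 weeks of tumour growth, 3 mice that also carried FLPo-ERT2, a tamoxifen-activated recombinase at the ubiquitous Rosa26 locus that removes the trap, received tamoxifen in doses of 4 mg and formed the restored group. The non-restored group held 3 mice, 1 without FLPo-ERT2 given tamoxifen, 1 without FLPo-ERT2 given vehicle and 1 with FLPo-ERT2 given vehicle, and in both groups treatment lasted 2 weeks. FLPo-ERT2 is not limited to tumour cells, and every mouse had Lkb1 trapped in its tumour cells when they arose. Haematopoietic, endothelial and dead cells were sorted out, and 10x Genomics 3′ libraries were made from the tdTomato-positive cells.

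In the healthy alveolus, cuboidal alveolar type II (ATII) cells produce surfactant and can turn into flat alveolar type I (ATI) cells, which carry gas exchange. During repair and in lung tumours, cells on this route can pass through a transitional state with high Krt8, Krt18, Krt19 and Cldn4. Hopx encodes a small homeodomain protein without DNA-binding activity of its own and marks the ATI lineage.

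The matrix pooled the cells of all mice, and no file used here assigned a cell to its mouse. Restored mice were therefore not set against non-restored ones here, the whole matrix counted as 1 sample, and no test was possible. Because the same UMIs chose the cells and gave the values, all levels and counts below are descriptions. Levels are given in CPM, the number of UMIs a gene had in every 1000000 UMIs of a class after its cells were pooled, and all intervals are 95% intervals that cover counting error only, not the variation between mice or cells. The matrix held 266713311 UMIs, and no pair of cells had identical counts. The median member carried 18334 UMIs from 4518 genes, and 1.77% of its UMIs were mitochondrial. Hopx-low keratin-high cells were deeper, with a median of 26723 UMIs, and Hopx-high, keratin-low cells were shallower, with 11871.5.

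**Figure D1:**
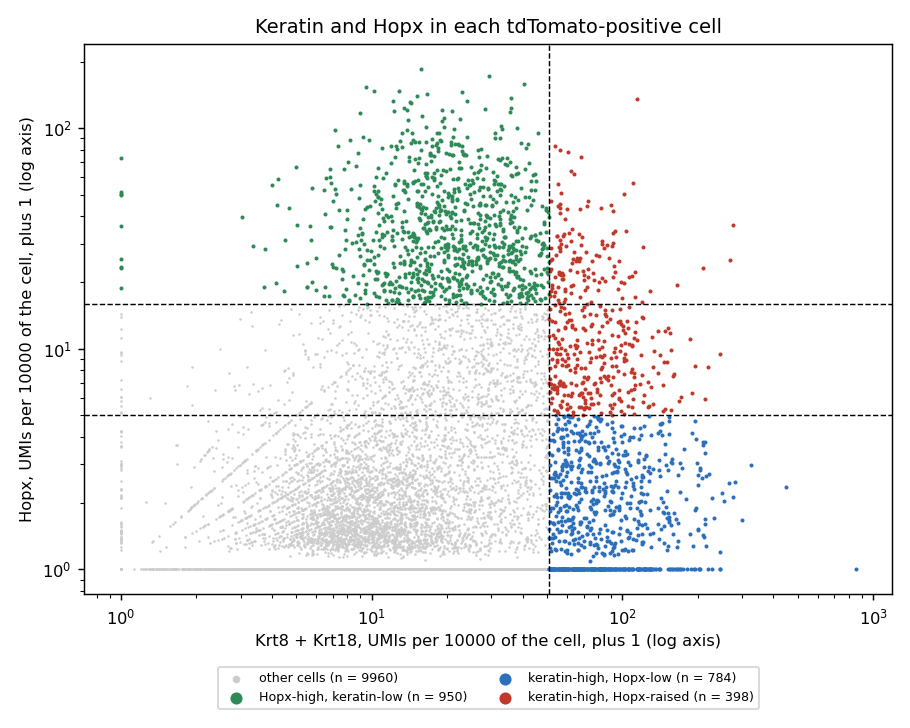
Hopx against Krt8 plus Krt18 in each of the 12092 cells, in UMIs per 10000 of the cell plus 1, on log axes; dashed lines mark the thresholds of 50 keratin UMIs and of 4 and 15 Hopx UMIs per 10000. The 398 keratin-high, Hopx-raised cells (red) lie to the right of the keratin line and above the lower Hopx line, with no gap at either line.

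The class is a range cut from 2 continuous measures, with no gap at either threshold. Whether its cells form a separate group in other genes was not tested. Among keratin-high cells, 49 had a Hopx level from 4 to 5 per 10000 and 70 had a level from 3 to 4. The nearest values on the 2 sides of the Hopx threshold were 4.004 and 3.999. On the keratin side, 62 members had 50 to 55 keratin UMIs per 10000, while 79 cells with enough Hopx had 45 to 50. Within the class the median keratin level was 71.0 per 10000 and the median Hopx level 9.61, with an interquartile range of 6.03 to 18.9 for Hopx. The Hopx call rested on few molecules in some members: 22 had at most 3 Hopx UMIs, 6 of them a single one, and 30 had fewer than 5000 UMIs in all. At the other end, 127 of the 398 reached the 15 Hopx UMIs per 10000 that define Hopx-high cells.

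The selecting genes showed the intended pattern and are given as a check. Hopx (chr5:77086988-77115121, minus strand, GRCm38) stood at 1250 CPM in members, against 108 in Hopx-low keratin-high cells and 3494 in Hopx-high, keratin-low cells. Krt8 stood at 4234 CPM in members, 4687 in Hopx-low keratin-high cells and 1003 in Hopx-high, keratin-low cells. Krt18, its filament partner, stood at 4093, 4859 and 1234 CPM in the same order. The pooled keratin levels of the members were thus close to that of their Hopx-low counterparts.

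The 5 marker genes of the label lay outside the selection but were chosen with earlier results of these data known. Their values describe the class and are no independent check of the label. Krt19, another simple-epithelial keratin, was at 1840 CPM in members (1811 to 1870), 1951 in Hopx-low keratin-high cells and 627 in Hopx-high, keratin-low cells. Cldn4, a tight-junction claudin of the transitional state, was at 284, 481 and 49.7 CPM. Ager, the receptor RAGE and a defining ATI gene, was at 3401 CPM in members, 3.23-fold (3.17 to 3.28) above the Hopx-low keratin-high cells at 1054 and below the Hopx-high, keratin-low cells at 5901. In single members Ager had a median of 35.1 UMIs per 10000, with 12.2 at the 10th and 68.4 at the 90th percentile, against a median of 9.20 in Hopx-low keratin-high cells. Rtkn2, used as an ATI marker, was at 32.7 CPM in members, 3.29 in Hopx-low keratin-high cells and 177 in Hopx-high, keratin-low cells. Lama3, a laminin chain of epithelial basement membranes, was at 122 CPM in members (115 to 130), 88.2 in Hopx-low keratin-high cells and 77.1 in Hopx-high, keratin-low cells, so that all 5 marker genes of the label were present and Lama3 was highest in the members themselves.

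Detection per cell was compared after thinning every cell to 5000 UMIs, which left out 30 members, 63 Hopx-low keratin-high cells and 109 Hopx-high, keratin-low cells. Ager was then detected in 98.9% of members, and in 86.6% of Hopx-low keratin-high cells. Rtkn2 was detected in 10.3% of members, 1.53% of Hopx-low keratin-high cells and 37.2% of Hopx-high, keratin-low cells. Background was measured roughly, without telling free RNA from doublets (2 cells captured as 1). For this, 107 cells with at least 10 UMIs of endothelial markers (median depth 18680 UMIs) were thinned likewise, and Ager appeared in 11.2% and Rtkn2 in 0.935% of them. The Rtkn2 share of members therefore lay above that background. Without thinning, Rtkn2 had a UMI in 23.6% of members.

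**Figure D2:**
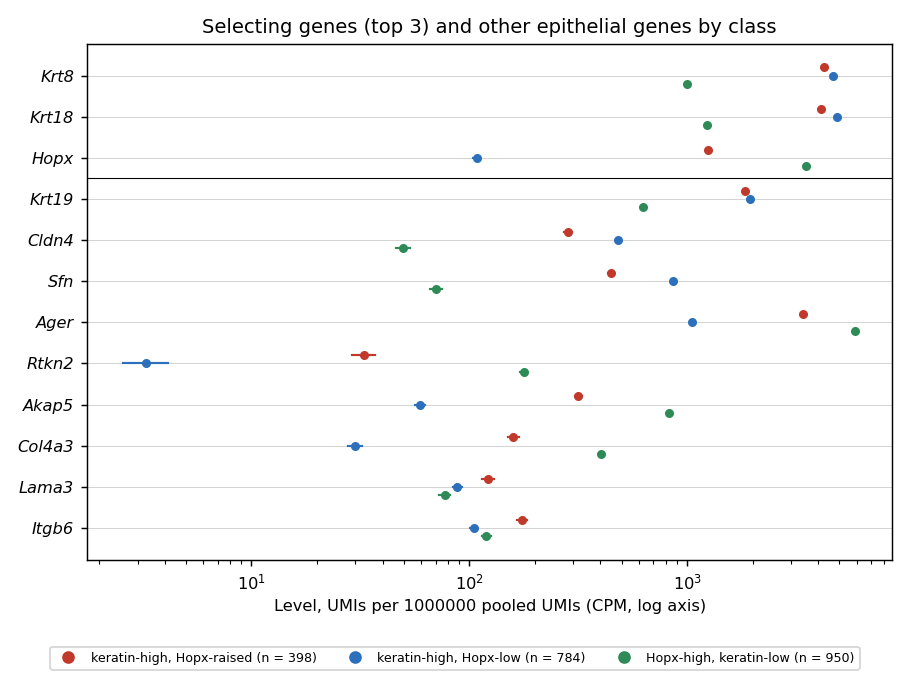
Levels in CPM on a log axis of the 3 genes that chose the classes (above the line) and of 9 further epithelial genes in members (red), Hopx-low keratin-high cells (blue) and Hopx-high, keratin-low cells (green); bars are exact Poisson 95% intervals. Krt19, Cldn4 and Sfn of the members sit near the blue points or between blue and green, Ager, Rtkn2, Akap5 and Col4a3 sit between blue and green, and Lama3 and Itgb6 lie right of both.

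The first comparison asked what accompanied raised Hopx among keratin-high cells. Of 8387 genes with at least 10 CPM in either class, 180 (2.15%) were at least 2-fold higher in members than in Hopx-low keratin-high cells and 228 (2.72%) at least 2-fold lower, with 1 CPM added to each level; the median log2 ratio over all tested genes was 0.04. Of 18 measured ATI genes from a list of 20, 13 were at least 2-fold higher in members and 0 lower, and their median log2 ratio was 1.66. Of the 14 with at least 10 CPM in both classes, 9 were at least 2-fold higher, with a median of 1.16, since the other 4 could pass the filter only by being high in members. The largest ratios after Hopx were those of Spock2, Galnt18, Ifit3, Rtkn2, Sema3a, Scnn1g, Fam189a2, Tmod1 and Akap5. Spock2, Galnt18, Ifit3, Rtkn2, Sema3a, Scnn1g and Tmod1 were under 10 CPM in Hopx-low keratin-high cells. They passed the filter only through members, so their place here follows in part from the filter. Spock2, an extracellular proteoglycan gene, was at 25.5 CPM in members and 1.96 in Hopx-low keratin-high cells, a ratio of 13.0 (9.37 to 18.5). Sema3a, a secreted guidance cue, was at 49.7 against 6.71 CPM, and Scnn1g, a subunit of the epithelial sodium channel, at 33.2 against 4.27. Akap5, which anchors protein kinase A, was at 317 against 59.5 CPM, a ratio of 5.33 (4.99 to 5.70).

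Single genes of the basement membrane and of membrane domains were higher as well, although their lists went both ways, with 3 of 20 basement membrane and integrin genes higher and 2 lower and 3 of 11 caveolin and EMP genes higher and 1 lower. Col4a3 and Col4a4, which encode chains of the alveolar type IV collagen, were at 159 and 176 CPM in members against 29.8 and 34.7 in Hopx-low keratin-high cells. The chloride channel-related gene Clic5 was at 548 against 176 CPM and Cavin2, a caveolar coat gene, at 84.6 against 28.1. Cldn18, the main claudin of the alveolus, was at 3235 CPM in members against 1499 and was the only 1 of 13 measured claudin and tight-junction genes past 2-fold, upward, with none downward. ATI genes under 2-fold in this comparison were Aqp5 (2269 against 1481 CPM), Emp2 (1768 against 915), Vegfa (257 against 163), Lmo7 (1673 against 1098) and Gprc5a (468 against 346), each still higher in members. Tgfb2, a TGF-beta ligand gene, was at 40.7 against 8.36 CPM, and Id3, an inhibitor of basic helix-loop-helix factors, at 211 against 102. Id3 was the only 1 of 20 measured lineage and progression factors at least 2-fold higher, and 1 was at least 2-fold lower. Ifit3, an interferon-induced gene, had a ratio of 10.8, but 81.9% of its member UMIs came from the 20 members (5%) with the most, and it was found in 60 members.

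Several of the genes lowest in members relative to Hopx-low keratin-high cells came from few Hopx-low cells. Gzme, a granzyme gene, was at 2.57 CPM in members against 394, and Gkn2, a gastric secreted protein gene, at 16.3 against 560. Pthlh, which encodes parathyroid hormone-related protein, was at 6.61 against 310 CPM. The trefoil factor gene Tff1 had no UMI in members and was at 91.9 CPM in Hopx-low keratin-high cells, at least 250-fold higher when members are set at a floor of 3 UMIs, but only 16 of the 784 cells carried it. Mcpt1 also had no UMI in members, against 19.0 CPM from 8 cells. In Hopx-low keratin-high cells the 5% of cells with the most UMIs of a gene held 84.5% of Gzme, 82.4% of Gkn2 and 68.8% of Pthlh UMIs. The rest of the 10 largest differences were Mcpt8, Ube2c, Spp1, Dlk1 and Igfbp4, with 0.245 to 4.65 CPM in members. All 10 except Gkn2 were under 10 CPM in members and so passed the filter only through the Hopx-low class. Mcpt1 and Mcpt8 belong to a protease family with similar copies, so the split of reads within it is uncertain.

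Of the 20 transitional genes, 5 were at least 2-fold lower in members than in Hopx-low keratin-high cells and 0 higher, with a median log2 ratio of -0.34. The 5 were Ndrg1, a stress- and hypoxia-responsive gene (21.6 against 148 CPM), Nupr1, a stress-response nuclear protein gene (208 against 631), Tnip3 (24.1 against 61.7), Plaur, the urokinase receptor gene (82.3 against 211), and Sprr1a, a cornified-envelope precursor gene (175 against 391). Krt7, Lgals3, Areg and S100a6 differed less, with ratios of members over Hopx-low cells of 0.850, 0.952, 0.896 and 0.856. Itga2, which encodes the alpha chain of a collagen-binding integrin, was at 16.3 CPM in members against 266, and Itga6, the laminin-binding alpha chain, at 47.4 against 144. Emp1 (117 against 376 CPM), the tissue factor gene F3 (518 against 1041), the AP-1 subunit gene Fosl1 (6.74 against 37.0) and Sox9 (5.51 against 23.6) were lower in members as well. Fosl1 and Sox9 were under 10 CPM in members and so passed the filter only through the Hopx-low class.

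**Figure D3:**
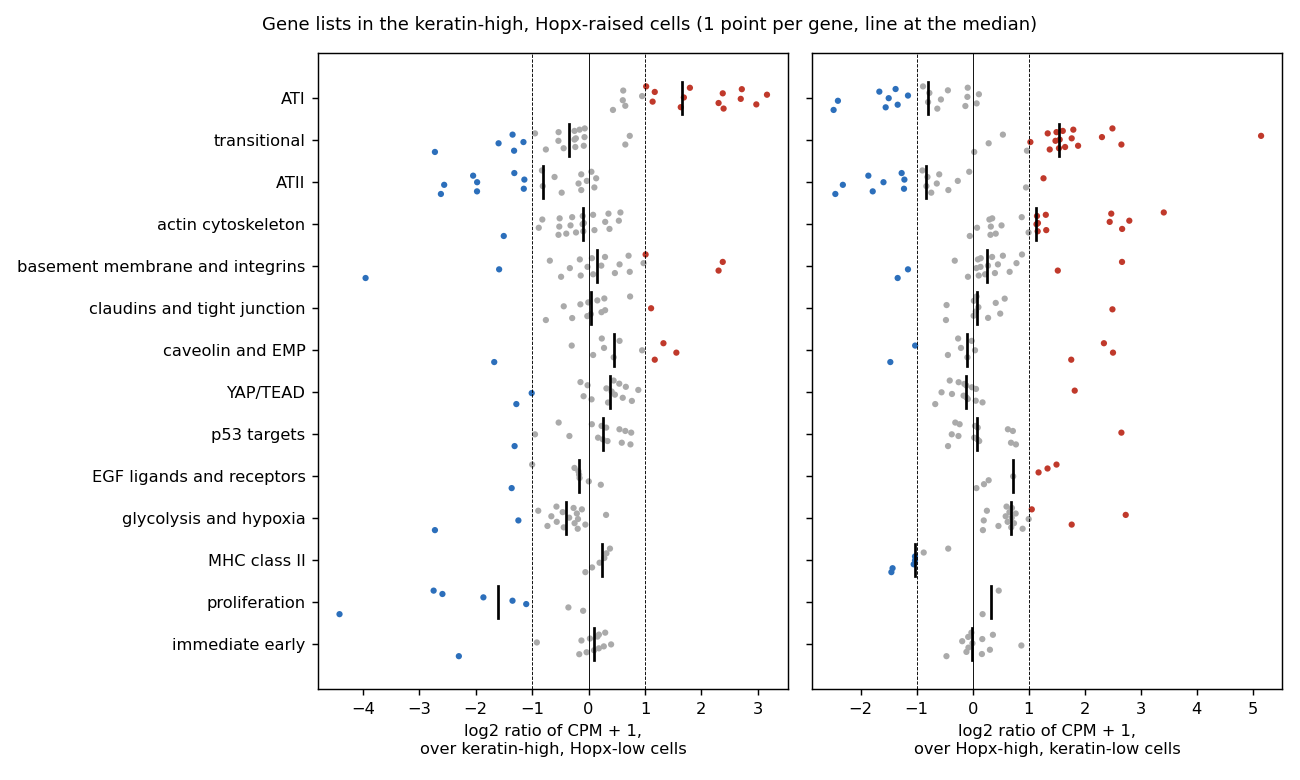
log2 ratio of CPM plus 1 in members over Hopx-low keratin-high cells (left) and over Hopx-high, keratin-low cells (right) for the measured genes of 14 lists, 1 point per gene, with a black line at each median and dashed lines at 2-fold; red points are at least 2-fold higher and blue points at least 2-fold lower in members. ATI genes lie right of 0 on the left and mostly left of 0 on the right (medians 1.66 and -0.80), and transitional genes lie mostly left of 0 on the left and right of it on the right (medians -0.34 and 1.55).

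The second comparison asked how members differed from Hopx-high cells without high keratin. Of 8327 tested genes, 243 (2.92%) were at least 2-fold higher and 120 (1.44%) at least 2-fold lower in members, and the median log2 ratio was again 0.04. Of the 20 transitional genes, 16 were at least 2-fold higher in members and 0 lower, with a median log2 ratio of 1.55; of the 17 with at least 10 CPM in both classes, 13 were. Sfn, the epithelial 14-3-3 sigma gene, was at 446.5 CPM in members against 70.1, a ratio of 6.37 (5.93 to 6.85). S100a6, a calcium-binding protein gene, was at 7763 against 2475 CPM, Clu, the secreted chaperone clusterin, at 4788 against 1378, and Fn1, fibronectin, at 309 against 83.2. Areg, the EGF-family ligand amphiregulin, was at 3383 against 1199 CPM. The 4 transitional genes under 2-fold were Krt7, Itgb6, Hbegf and Cdkn1a, and the last of these, which encodes the cell cycle inhibitor p21, was at 822 against 807 CPM.

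Actin-binding genes formed another list with members past the threshold. Of 21 measured, 11 were at least 2-fold higher in members than in Hopx-high, keratin-low cells and 0 lower, with a median log2 ratio of 1.14 (7 of the 17 with at least 10 CPM in both classes), whereas against Hopx-low keratin-high cells 0 were higher and 1 was lower (median -0.11). The tropomyosin gene Tpm2 was at 288 CPM in members, 336 in Hopx-low keratin-high cells and 44.5 in Hopx-high, keratin-low cells. Palld, which encodes the actin-bundling protein palladin, was at 28.8, 83.3 and 1.80 CPM, and Pdlim7 at 35.4, 66.1 and 5.55.

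The 10 largest ratios over Hopx-high, keratin-low cells were those of Sprr1a, Gsta1, Gm3776, Ly6g6c, Palld, AW112010, Cwh43, Prss22, Bok and Ly6d. Sprr1a, Gsta1, Palld, AW112010, Prss22, Bok and Ly6d were under 10 CPM in Hopx-high, keratin-low cells, so they passed the filter only through members. Sprr1a was at 175 CPM in members against 3.98, a ratio of 44.1 (33.5 to 59.1), yet it was found in 71 of 398 members and 87.5% of its UMIs came from 20 cells. Gsta1, a glutathione transferase gene, was at 30.5 CPM from 4 members only, and its neighbour Gm3776, which has a similar sequence and may share its reads, at 18.7 CPM from 3. With a keratin threshold of 80 the log2 ratio of Gm3776 over Hopx-high, keratin-low cells was -1.84 in place of 4.20. Prss22, an epithelial serine protease gene, was at 43.1 against 3.90 CPM, and Bok, a BCL2-family gene, at 31.5 against 2.70. The caveolar coat gene Cavin3 (972 against 286.5 CPM), Emp3 (93.2 against 15.6) and the lactate transporter gene Slc16a3 (19.6 against 2.10) were also higher in members. Thbs1, which encodes thrombospondin 1, was at 308 against 83.3 CPM, and 3 of 13 measured TGF-beta genes (Thbs1 and Tgfbi among them) were past 2-fold upward with none downward, 2 of them among the 12 with at least 10 CPM in both classes. In the first comparison 1 of 11 such genes (Tgfbi) was lower and 0 were higher, while Tgfb2 and Tgfb3 passed the filter through the members alone.

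Genes lower in members than in Hopx-high, keratin-low cells included ATI, ATII and MHC class II genes, although most of the 120 belonged to no list. Of 19 measured ATI genes, 8 were at least 2-fold lower and 0 higher, with a median log2 ratio of -0.80 (7 of the 18 with at least 10 CPM in both classes). Pdpn, the ATI surface protein podoplanin, was at 8.57 against 52.5 CPM, and Rtkn2, as given above, at 32.7 against 177. Emp2 (1768 against 1886 CPM), Aqp5 (2269 against 2484), Ndnf (866 against 802) and Lmo7 (1673 against 1592) were near the level of Hopx-high cells. Within the ATI list, some genes of members thus stood close to the Hopx-high level and others several-fold below it. Of 7 measured MHC class II genes, 5 were at least 2-fold lower (4 of the 6 with at least 10 CPM in both classes), among them H2-Aa (194 against 525 CPM), while Cd74, the invariant chain gene, was at 2362 against 4328. The remaining 10 lowest ratios included Bex4, Lcn2, Hc, Arxes2, Tril, Lyz2, Wnt3a and Ces1d. Wnt3a and Tril were at 2.33 and 2.45 CPM in members and had UMIs in 13 and 16 of them, against 168 and 150 Hopx-high, keratin-low cells.

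Promoters of a few example genes are shown, to display where 2 short motifs lay. AP-1, a factor of FOS and JUN subunits, was searched as TGANTCA, which reads the same on both strands, and TEAD, the DNA-binding partner of YAP, as GGAATG on either strand; the 2 motifs do not overlap in the windows printed. Sequences are RefSeq promoter windows on GRCm38.p6 from 250 bases before to 50 after a start site, 5′ to 3′ on the strand of the gene, with motif matches in capitals. The first 2 genes are keratin-side genes that stood lower in members than in Hopx-low cells and higher than in Hopx-high cells, Cldn4 at chr5:134946885-134947184 (minus strand) and Sprr1a at chr3:92485832-92486131 (minus strand).
Cldn4: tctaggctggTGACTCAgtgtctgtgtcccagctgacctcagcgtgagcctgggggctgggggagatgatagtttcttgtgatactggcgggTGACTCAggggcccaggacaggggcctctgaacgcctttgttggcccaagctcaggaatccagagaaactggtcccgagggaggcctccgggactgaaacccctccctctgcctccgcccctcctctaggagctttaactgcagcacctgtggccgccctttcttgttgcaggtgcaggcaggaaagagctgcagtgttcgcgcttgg
Sprr1a: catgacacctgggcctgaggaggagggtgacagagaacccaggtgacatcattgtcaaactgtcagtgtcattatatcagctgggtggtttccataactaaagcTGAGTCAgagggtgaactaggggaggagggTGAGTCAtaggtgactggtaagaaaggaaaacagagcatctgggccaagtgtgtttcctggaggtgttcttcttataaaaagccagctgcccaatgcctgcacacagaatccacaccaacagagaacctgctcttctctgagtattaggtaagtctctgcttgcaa
The Cldn4 window held AP-1 matches starting 240 and 158 bases before the start site, and the Sprr1a window at 146 and 116 bases before it. Hopx (chr5:77115074-77115373, minus strand, the upstream of its 2 windows) and Ager (chr17:34597600-34597899, plus strand) held neither motif in these 300 bases. The sequences are examples and do not divide the genes by side: Krt8 and Krt18 held neither motif, as did Gzme, Gkn2 and Pthlh, whereas Ifit3 held an AP-1 match.
Hopx: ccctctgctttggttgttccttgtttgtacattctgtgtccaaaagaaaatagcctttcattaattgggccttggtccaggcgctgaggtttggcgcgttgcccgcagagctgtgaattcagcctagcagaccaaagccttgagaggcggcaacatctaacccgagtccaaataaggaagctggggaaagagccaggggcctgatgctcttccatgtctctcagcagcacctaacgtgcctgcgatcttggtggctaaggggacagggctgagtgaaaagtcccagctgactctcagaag
Ager: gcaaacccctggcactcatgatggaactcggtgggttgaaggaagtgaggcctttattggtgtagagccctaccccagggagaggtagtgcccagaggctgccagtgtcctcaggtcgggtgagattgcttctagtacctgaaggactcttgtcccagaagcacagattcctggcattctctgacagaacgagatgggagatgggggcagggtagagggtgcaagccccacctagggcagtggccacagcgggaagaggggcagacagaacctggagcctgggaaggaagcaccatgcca
Aldh1a1, among the genes furthest above both classes, is shown because its window at chr19:20492333-20492632 (plus strand) held both motifs; its second window held neither.
Aldh1a1: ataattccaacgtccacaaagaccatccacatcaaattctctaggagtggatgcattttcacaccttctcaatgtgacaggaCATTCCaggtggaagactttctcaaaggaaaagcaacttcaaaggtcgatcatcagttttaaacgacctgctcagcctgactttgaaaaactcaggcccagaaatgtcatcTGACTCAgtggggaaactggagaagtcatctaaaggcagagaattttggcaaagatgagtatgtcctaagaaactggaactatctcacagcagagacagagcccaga
The AP-1 letters were found in 8.97% of 27025 genes with a promoter window and in 6.10% of the 6637 tested genes of the first comparison that had one. They were found in 30 of 177 windowed genes (16.9%) that were lower in members than in Hopx-low keratin-high cells and in 32 of 179 (17.9%) that were higher in members than in Hopx-high, keratin-low cells, against 11 of 129 (8.53%) and 5 of 96 (5.21%) in the opposite directions. TEAD letters were found in 16.6% of all genes with a window and in 13.95% and 13.9% of the tested genes of the 2 comparisons. They were found in 26 of 129 (20.2%) genes higher and 28 of 177 (15.8%) lower than in Hopx-low keratin-high cells, and in 28 of 179 (15.6%) higher and 20 of 96 (20.8%) lower than in Hopx-high, keratin-low cells. A match describes these letters only, and the shares carry no test.

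Among genes that differed between the 2 comparison classes, most had an intermediate level in members. Of 471 genes at least 2-fold higher in Hopx-high, keratin-low cells than in Hopx-low keratin-high cells, with the selecting genes left out, 449 had an intermediate level in members. On a scale from 0 at the Hopx-low keratin-high level to 1 at the Hopx-high level, their median position was 0.598 (quartiles 0.459 to 0.713), and 333 were nearer the Hopx-high end. Of 600 genes higher in Hopx-low keratin-high cells, 550 were intermediate, with a median position of 0.442 (0.297 to 0.638). A level between those of cells chosen on the same 2 axes follows in part from the choice, so these counts describe the class and do not test a path between states.

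Fewer genes lay outside the range of both classes. Of 8602 genes with at least 10 CPM in any of the 3, 45 (0.523%) were at least 1.5-fold above the higher and 46 (0.535%) at least 1.5-fold below the lower of the 2 other levels. The 10 furthest above both were Cpxm2, Gsta1, Aldh1a1, Tppp3, 2610028H24Rik, Krtap17-1, Ntn1, Sh3bgr, Tmprss2 and Lancl3. Tppp3 (chr8:105467493-105471526, minus strand), which encodes a tubulin-binding protein, was at 484 CPM in members, 214 in Hopx-low keratin-high cells and 137 in Hopx-high, keratin-low cells. After thinning it was detected in 68.8% of members, 39.9% and 35.1% of the other classes, and in 1.87% of the cells with endothelial markers and 23.6% of 72 cells with at least 10 UMIs of immune markers. Tppp3 is also abundant in ciliated cells. The ciliated genes Foxj1 and Ccdc153 stood at 0.245 CPM and 0 in members, and Dynlrb2 and Rsph1 at 5.76 and 1.35. Tmprss2, a transmembrane serine protease gene of the airway and alveolar epithelium, was at 112, 52.8 and 53.7 CPM and was detected in 41.3%, 19.0% and 22.8% of thinned cells.

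Other genes of this group were less abundant. Cpxm2 (chr7:132032687-132154739, minus strand), a carboxypeptidase-like gene, was at 33.9 CPM in members (30.0 to 38.2), 10.8 in Hopx-low keratin-high cells and 7.503 in Hopx-high, keratin-low cells and was found in 87 members. Aldh1a1, a retinaldehyde dehydrogenase gene, was at 38.2, 13.0 and 15.3 CPM, and Ntn1, the guidance cue netrin 1, at 11.8, 3.25 and 4.88. Krtap17-1, annotated as a keratin-associated protein gene, was at 446, 203 and 197 CPM. Gsta1 rested on 4 members, as above, and with a keratin threshold of 80 its log2 ratios over the 2 classes were -1.15 and -2.52. Lama3 and the integrin gene Itgb6 (174, 105 and 120 CPM), which encodes the beta chain of an integrin of injured epithelium, were also highest in members but under the 1.5-fold limit.

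The 10 genes furthest below both classes were Lcn2, Trf, Lrg1, Dlk1, Lyz2, Chil1, Cxcl15, Retnla, Ly6c2 and Elf5. With a Hopx threshold of 2 the log2 ratio of Dlk1 over Hopx-high, keratin-low cells was 0.12 in place of -1.99. All 10 were far higher in keratin-low, Hopx-low cells, the 8939 cells that held most of the surfactant transcripts. Lcn2, the iron-trapping lipocalin 2, was at 18.1 CPM in members, 120 in Hopx-low keratin-high cells, 112 in Hopx-high, keratin-low cells and 1864 in keratin-low, Hopx-low cells. Lyz2, the lysozyme of ATII cells and macrophages, whose reads may be shared with the near-identical Lyz1, was at 161, 637, 806 and 12070 CPM in the same order. In single cells Lyz2 had a median of 0.398 UMIs per 10000 in members, 0.413 in Hopx-low keratin-high cells, 0.718 in Hopx-high, keratin-low cells and 0.393 in the cells with endothelial markers, so the median member was close to the background level. In members 20 cells held 71.0% of the Lyz2 UMIs. Cxcl15, a lung chemokine gene, was at 194, 484, 670 and 6538 CPM.

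**Figure D4:**
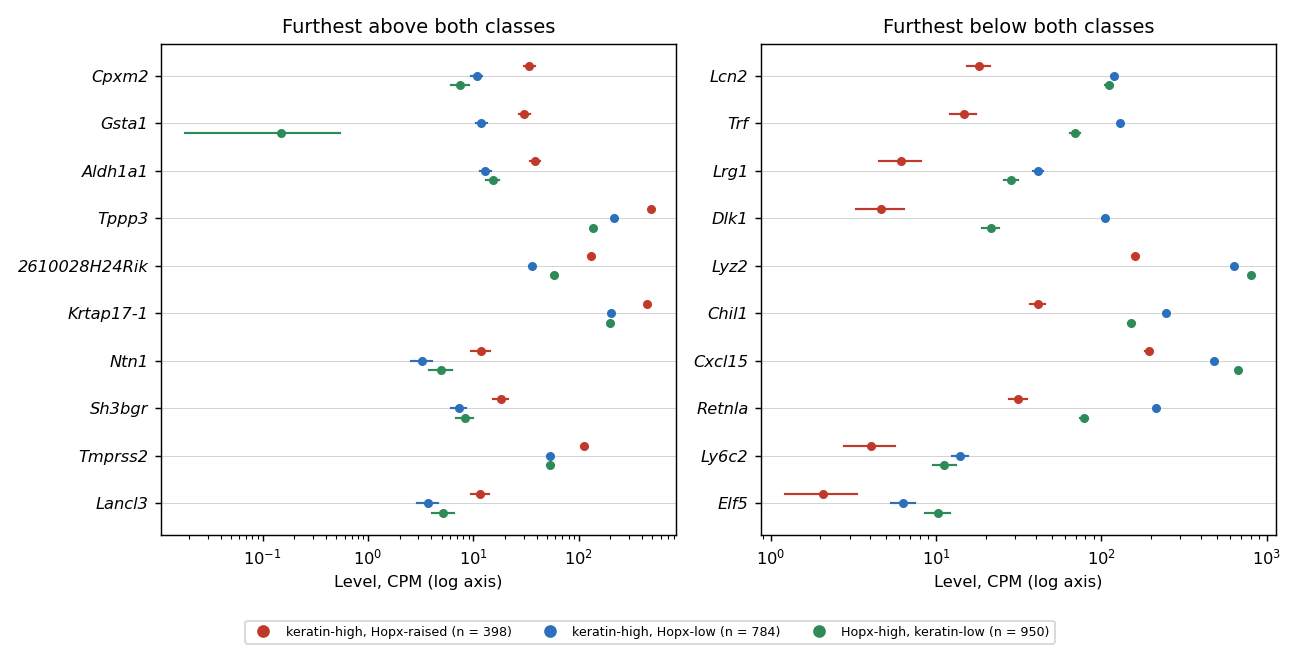
Levels in CPM (log axes) of the 10 genes furthest above (left) and the 10 furthest below (right) both comparison classes, in members (red), Hopx-low keratin-high cells (blue) and Hopx-high, keratin-low cells (green), with exact Poisson 95% intervals. Tppp3 stands at 484 CPM in members against 214 and 137, and Lcn2 at 18.1 against 120 and 112.

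ATII genes as a group were low in members. Of 19 measured, 8 were at least 2-fold lower than in Hopx-low keratin-high cells with 0 higher (median log2 ratio -0.81), and 8 were at least 2-fold lower than in Hopx-high, keratin-low cells with 1 higher (median -0.83); 7 lay at least 1.5-fold below both. Over the 18 with at least 10 CPM in both classes, 7 were lower in each comparison. The gene on the higher side was Fabp5, a fatty acid-binding protein gene (51.3 against 20.8 CPM, with 92.1% of member UMIs in 20 cells), and its log2 ratio was -0.12 with a Hopx threshold of 8. Lamp3, a lamellar body membrane gene, was at 37.5 CPM in members, 150 in Hopx-low keratin-high cells and 88.9 in Hopx-high, keratin-low cells, and Slc34a2, the phosphate transporter of ATII cells, at 123, 216 and 372. Sftpc, surfactant protein C, was at 19760, 19070 and 47550 CPM. The cells with endothelial markers had a median of 6.53 Sftpc UMIs per 10000 and a pooled level of 12570 CPM. Free RNA and doublets among them were not told apart. Members had a median of 46.7, with 4.75 at the 10th and 607 at the 90th percentile, so that Sftpc spanned the median of the endothelial-marker cells and far higher levels within the class. Sftpb, surfactant protein B, was at 4075, 7220 and 4252 CPM.

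Other lists showed small differences or a few genes. Of 18 measured glycolysis and hypoxia genes, 2 (Ndrg1 and Slc2a1) were at least 2-fold lower than in Hopx-low keratin-high cells and 0 higher, while 1 (Eno1) of the 16 with at least 10 CPM both in members and in Hopx-high, keratin-low cells was higher there and 0 lower; Slc16a3 and Ndrg1 passed that filter through the members alone. Of 20 basement membrane and integrin genes, 3 (Col4a3, Col4a4 and Lamb2) were at least 2-fold higher and 2 (Itga2 and Itga6) at least 2-fold lower than in Hopx-low keratin-high cells; over Hopx-high cells 0 of the 18 with at least 10 CPM in both classes were higher and 2 (Col4a3 and Col4a4) lower. Of 15 YAP/TEAD genes with at least 10 CPM in both classes, 0 were higher and 1 (F3) lower in the first comparison, and 1 (F3) was higher and 0 lower in the second; the target gene Ctgf was at 101 CPM in members, 54.4 in Hopx-low keratin-high cells and 149 in Hopx-high, keratin-low cells. Of 15 measured p53 target genes, 1 (Gdf15) was at least 2-fold lower in the first comparison and 1 (Sfn) at least 2-fold higher in the second. Immediate early genes, which respond to tissue dissociation, had summed levels of 13506 CPM in members, 12184 and 13154 in the 2 classes, and 0 of 12 with at least 10 CPM in both classes were past 2-fold in either comparison. Of 7 EGF ligand and receptor genes with at least 10 CPM in both classes, 0 were past 2-fold in the first comparison, and 3 were higher with 0 lower in the second. The lineage factor Nkx2-1 was at 497 CPM in members, 311 in Hopx-low keratin-high cells and 604 in Hopx-high, keratin-low cells. Of 9 measured keratin and adhesion genes, 1 (Krt23) was lower than in Hopx-low keratin-high cells and 1 (Krt19) higher than in Hopx-high cells. Of 11 caveolin and EMP genes, 3 were higher and 1 lower in the first comparison, and 3 were higher and 2 lower in the second.

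Most proliferation genes were under 10 CPM in members. Of the 10 listed, 2 reached 10 CPM both in members and in Hopx-low keratin-high cells, and both differed by less than 2-fold. The 6 genes past 2-fold, all lower in members, reached 10 CPM in the Hopx-low class alone and so were bound to differ; Cdk1 was at 3.31 against 14.7 CPM and Cenpf at 1.47 against 15.6. With at least 3 UMIs of the 10 listed genes after thinning, 3 of 368 members (0.815%, exact interval 0.168 to 2.36) counted as cycling, against 28 of 721 Hopx-low keratin-high cells (3.88%, 2.60 to 5.56) and 3 of 841 Hopx-high, keratin-low cells (0.357%, 0.0736 to 1.04). Without thinning the shares were 10.3%, 28.3% and 4.63%, which also follow the depth of the classes.

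To set keratin apart from Hopx, members were also compared with keratin-low cells in the same Hopx range. In the range from 4 to 15 Hopx UMIs per 10000 there were 271 members and 1021 keratin-low cells. Of the latter, 10.1% were among the cells with the highest Scrublet doublet scores, against 2.01% of all members, and the part of this in the values below was not tested. Of 8462 tested genes, 220 (2.60%) were at least 2-fold higher and 246 (2.91%) at least 2-fold lower in members. These shares cover genes with at least 10 CPM in either class. Under that filter 17 of 20 transitional, 11 of 20 actin, 4 of 20 basement membrane and integrin and 3 of 13 claudin and tight-junction genes were higher, with 0 lower. Of 19 ATII genes 15 were lower and 0 higher, and of 19 ATI genes 1 was higher and 0 lower. The list counts that follow cover genes with at least 10 CPM in both classes, for which no share over all genes was taken. Of 19 transitional genes 16 were higher and 0 lower, of 17 actin genes 8 were higher and 0 lower, of 18 basement membrane and integrin genes 2 and 0, and of 12 claudin and tight-junction genes 2 and 0. Of 19 ATII genes 15 were lower and 0 higher (median log2 ratio -1.77), while of 18 ATI genes 1 was higher and 0 lower (median 0.22). Ager was at 2888 against 2826 CPM and Akap5 at 254 against 235, whereas Lama3 was at 126 against 43.3, Cldn4 at 315 against 62.7, and Slc34a2 at 138 against 1042.

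At 15 or more Hopx UMIs per 10000, 127 members stood against the 950 Hopx-high, keratin-low cells. Of 8293 tested genes, 149 (1.80%) were at least 2-fold higher and 120 (1.45%) at least 2-fold lower. These shares cover genes with at least 10 CPM in either class. Under that filter 9 of 18 transitional and 8 of 20 actin genes were higher with 0 lower, and 12 of 19 ATII and 3 of 19 ATI genes were lower with 0 higher. Over genes with at least 10 CPM in both classes, transitional genes were higher in 8 of 17 and lower in 0, actin genes higher in 5 of 17 and lower in 0, and ATII genes lower in 10 of 17 and higher in 0. Of the basement membrane and integrin genes 0 of 18 were past 2-fold in either direction, and of the claudin and tight-junction genes 1 of 12 was higher and 0 lower. ATI genes were lower in 2 of 18 and higher in 0, with a median log2 ratio of -0.36. Ager was at 4848 CPM in these members against 5901, a ratio of 0.822 (0.805 to 0.839), and Rtkn2 at 59.9 against 177, a ratio of 0.338 (0.281 to 0.404). Hopx itself was still lower in these members, at 2659 against 3494 CPM, and the difference between lists was not tested.

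**Figure D5:**
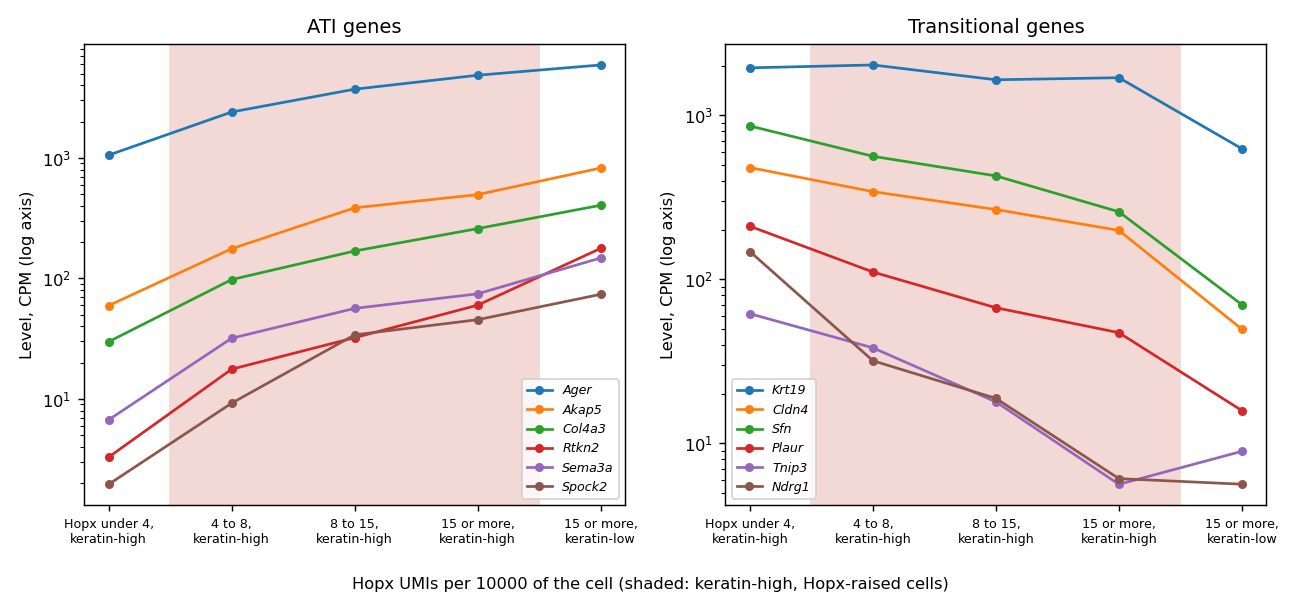
Levels in CPM (log axes) of 6 ATI genes (left) and 6 transitional genes (right) in keratin-high cells ordered by Hopx range, with members shaded, and in Hopx-high, keratin-low cells at the right end; lines join the points of a gene. Ager is at 1054 CPM in Hopx-low keratin-high cells and at 4848 in members with the most Hopx, and Cldn4 is at 481 and 199.

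Within the class, ATI genes were graded with Hopx. Of 19 with at least 10 CPM in any Hopx range, all were higher in the highest than in the lowest range, 9 of them at least 2-fold, and 17 increased in order across the 3 ranges. Of all 8535 genes past the same minimum, 50.4% were higher in the highest range, 0.855% at least 2-fold, and 19.8% increased in order. A gene could pass this minimum only through the range where it was high, as Spock2 did with 9.22 CPM in the lowest range. The counts follow in part from that filter, and none was taken over genes past the minimum in every range. The 155 members with 4 to 8 Hopx UMIs per 10000, the 116 with 8 to 15 and the 127 with 15 or more had Ager levels of 2402, 3713 and 4848 CPM. Akap5 stood at 176, 385 and 495 CPM, Col4a3 at 97.8, 169 and 259, and Rtkn2 at 17.7, 32.2 and 59.9. The ratio of the highest to the lowest range was 2.02 (1.96 to 2.08) for Ager and 4.92 (3.31 to 7.47) for Spock2. Genes outside the ATI list moved with Hopx too: the club cell gene Scgb1a1 stood at 3.43, 10.3 and 39.8 CPM, with UMIs in 11.6% of members, and the nuclear RNA Malat1 had a median of 352 UMIs per 10000 in Hopx-low keratin-high cells, 587 in members and 810 in Hopx-high, keratin-low cells. Their part in the gradient was not tested. Of the 20 transitional genes, 18 were lower in the highest than in the lowest Hopx range, 8 of them at least 2-fold, and 14 decreased in order across the 3 ranges, while Hbegf and Cdkn1a were higher. Over all genes 49.5% were lower, 2.05% at least 2-fold, and 19.3% decreased in order. Tnip3 and Ndrg1, at 5.62 and 6.09 CPM in the highest range, passed the minimum only through the lower ranges. Their fall follows in part from the filter. Krt19 was at 2032, 1650 and 1699 CPM, Cldn4 at 343, 267 and 199, Sfn at 563, 428 and 258, Plaur at 111, 67.1 and 47.3, and Tnip3 at 38.2, 17.9 and 5.62. Itga2 was at 31.4, 5.37 and 0.936 CPM. Lama3 (114, 145 and 113 CPM) and Tppp3 (436, 568 and 482 CPM) showed no gradient with Hopx.

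Keratin divided the members along another line. In the 158 members with 50 to 65 keratin UMIs per 10000, the 156 with 65 to 100 and the 84 with 100 or more, Krt19 was at 1274, 1771 and 2861 CPM, S100a6 at 5826, 7595 and 11140, and Cldn4 at 202, 262 and 453. Ager stood at 3696, 3284 and 3119 CPM across the same ranges, and Sftpc at 27950, 17600 and 10180. Tppp3 stood at 344.5, 484 and 708 CPM and so followed the keratin level. Across the 336 members with at least 10000 UMIs, the Spearman correlation with Hopx was 0.51 for Ager, 0.42 for Col4a3, 0.41 for Akap5, 0.36 for Emp2, 0.26 for Clic5, 0.19 for Rtkn2 and 0.11 for Cldn18. It was -0.21 for Sfn, -0.20 for Cldn4, -0.12 for Krt19, -0.11 for Areg and 0.21 for Malat1, and that of Hopx with Krt8 plus Krt18 was -0.14. With the keratin sum it was 0.48 for Krt19 and -0.11 for Ager. These values come from cells of 1 pooled matrix that share libraries, and Hopx per 10000 UMIs also correlated with depth (-0.31 over all 398 members).

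Further values bear on what the members were. TdTomato was at 11480 CPM in members, with a median of 185 UMIs per cell. The trap reporter GFP was at 58.5 CPM in members (53.4 to 64.0), 49.3 in Hopx-low keratin-high cells and 35.0 in Hopx-high, keratin-low cells, and Stk11 at 11.6 (9.41 to 14.2), 10.4 and 31.8 CPM. Whether classes drew unequally on restored and non-restored mice cannot be told apart from a difference between classes here. Summed levels of markers of other cell types were low in members, at 1.71 CPM for 7 endothelial, 13.1 for 7 fibroblast, 4.16 for 7 immune and 0.612 for 5 basal genes, and 3, 2, 3 and 4 of these genes had no member UMI; Ptprc and Cdh5 were at 0. Of the 5 mesothelial genes, Upk3b, Wt1, Lrrn4 and Calb2 were at 0, and Msln, which transitional cells also express, was at 121 CPM. The club cell genes summed to 20.9 CPM, of which Scgb1a1 gave 14.8, against 4.98 in Hopx-low keratin-high cells and 30.3 in Hopx-high, keratin-low cells. The median Scrublet doublet score was 0.0552 in members, 0.0714 in Hopx-low keratin-high cells and 0.0404 in Hopx-high, keratin-low cells, and 8 members (2.01%) were among the highest-scoring cells, against 31 (3.95%) and 37 (3.89%).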

How the data were processed

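Single-cell 3′ RNA profiles of tdTomato-positive cells from 3 restored and 3 non-restored mice were analysed. Per the study's methods and the file headers, the authors produced raw UMI counts per gene and cell with Cell Ranger 3.0.2 on mm10, with TdTomato and GFP among the features, and deposited the filtered matrix without normalization; the annotation release is not given in the sources used here. The matrix was used as deposited, as 1 pooled sample, with every value column mapped. Because it carries no barcodes in the files used here, barcodes shared between libraries were not counted.

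Of 16017 cells, 13936 had at least 500 genes, 12183 of these had at most 20% mitochondrial UMIs, and 12092 had a TdTomato UMI. UMIs were summed over the cells of each class, so that deep cells weigh more (8165953 UMIs in members, 22494730 in Hopx-low keratin-high and 13327656 in Hopx-high, keratin-low cells). Ratios were taken for genes with at least 10 CPM in either class after adding 1 CPM; those printed with an interval are plain CPM ratios. Called genes were at least 2-fold apart, or 1.5-fold outside both classes. The genes named were the 10 largest in each direction, the marker genes of the label and genes of the lists. Members, gene lists and comparisons were chosen with earlier results of these data known. Intervals were exact Poisson (levels), exact conditional binomial (ratios) and Clopper-Pearson (shares), at 95%. Cells were thinned to 5000 UMIs with a fixed seed. Doublets were kept, since Scrublet's automatic threshold called 0 of 12183 cells and so had not worked; its scores were used as a description. Of the gene IDs, 31011 (99.9%) matched GENCODE M21 on GRCm38. Alternatives changed the keratin, Hopx, gene, mitochondrial and TdTomato thresholds of the members, the weighting of cells, the CPM minimum, the CPM added, depth and doublet filters; the Hopx-high limit and the fold limits were kept. Scripts ran in Python 3.11.15 with numpy 2.4.6, scipy 1.17.1, pandas 2.3.3, scanpy 1.11.5 and matplotlib 3.10.9, and were checked on simulated data. One further allele shared by all mice and some single-gene values are not reported here.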

Additional observations from a re-analysis of the deposited data

How the results depend on the processing

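Members made up 3.29% of filtered cells, and 4.65% or 2.01% with a Hopx threshold of 2 or 8, 7.14% or 1.32% with a keratin threshold of 30 or 80, 3.73% with a mitochondrial limit of 10% and 4.12% after thinning. Of 90 gene counts under 15 alternatives, 18 lay more than 1.5 times from the value reported. With a minimum of 1 CPM, 287 genes were higher and 473 lower than in Hopx-low keratin-high cells, 419 higher and 230 lower than in Hopx-high, keratin-low cells, 108 above both and 102 below both. With 10 CPM added, the counts in the same order were 87, 117, 128, 65, 16 and 20. A keratin threshold of 80 gave 204 genes lower than in Hopx-high, keratin-low cells, 77 above both and 76 below both, a Hopx threshold of 8 gave 95 below both, and thinning gave 73 above and 76 below both. The minimum of 1 CPM cannot change a gene ratio, and the limit of 2 TdTomato UMIs kept 396 of the 398 members. The count of ratios that follows therefore includes values that could not move or could hardly move. Of 2655 values of 177 gene ratios past 2-fold, which were picked from these same data, 2462 stayed past 2-fold in the same direction. The log2 ratio reversed in 6: with a keratin threshold of 80, Gsta1 was at -1.15 over Hopx-low keratin-high cells and at -2.52 over Hopx-high, keratin-low cells, and Gm3776 at -1.84 over the latter; over the same cells Cyp2f2 was at 0.37 with cells weighted equally, Dlk1 at 0.12 with a Hopx threshold of 2, and Fabp5 at -0.12 with a Hopx threshold of 8. For Gsta1 and Gm3776 at most 4 members carried a UMI, and for the other genes the cause was not tested. No paired analysis was possible because the matrix carries no replicate numbers. The depth of rare members and the single pooled sample limit the precision, and no variation between mice could be estimated.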
